A study of Homo sapiens with 18 samples.

Results

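The inhibitors of cyclin-dependent kinases, their effector RB1 and the neighbours of CDKN2A at 9p21, 10 genes in all, were followed across the 18 libraries of the series. They were the INK4 inhibitors CDKN2A, CDKN2B, CDKN2C and CDKN2D, the CIP/KIP inhibitors CDKN1A, CDKN1B and CDKN1C, the tumour suppressor RB1, and MTAP and the long non-coding RNA CDKN2B-AS1, which lie beside CDKN2A at 9p21. Their Ensembl identifiers were matched to GENCODE symbols, and 10 of 10 were found among the 60849 genes of the count files. In dividing cells, cyclin-dependent kinases bound to D-type and E-type cyclins phosphorylate RB1, which releases E2F factors that switch on genes of DNA replication. INK4 proteins bind CDK4 and CDK6 and keep them from cyclin D, whereas CIP/KIP proteins bind cyclin-kinase complexes, above all those of CDK2. The 9p21 locus holds CDKN2A and CDKN2B side by side and is often deleted in lung cancer, commonly together with MTAP.

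The libraries came from a pair of established human cell lines of lung adenocarcinoma, H1975 and HCC827, both with an activating EGFR mutation. Both lines were untreated, were cultured in RPMI medium with fetal calf serum and antibiotics, and were harvested when nearly confluent. The series describes 3 independent RNA samples per line, each sequenced as Illumina short reads, Oxford Nanopore (ONT) cDNA reads and PacBio Iso-Seq reads, which makes 6 groups of 3 libraries. Each condition is 1 cell line, so tests measure the spread between samples of that line, which may be technical. Total gene counts were 81467393 to 116497461 per ONT library, 33362018 to 40200473 per Illumina library other than HCC827 replicate 2 with 10020699, and 37795 to 54339 per PacBio library. Replicates 2 and 3 of H1975 and replicates 1 and 2 of HCC827 were closer in PacBio than counting noise allows (chi-square per gene of 0.550 and 0.671 on average), while HCC827 replicate 3 stood apart from both other libraries of its line (4.41 and 4.88). The 5 epithelial markers fixed for the check (EPCAM, KRT8, KRT18, KRT19 and CDH1) were detected in both lines on every platform, with summed Illumina levels of 2717 to 2896 counts scaled per 1e6 (CPM) in H1975 and 7283 to 10564 in HCC827. Summed fibroblast markers (COL1A2, PDGFRB, DCN and LUM) were at 75.1 to 87.5 CPM in the H1975 Illumina libraries and 0.202 to 0.434 in those of HCC827, and at 7.70 to 8.5 and 1.35 to 1.86 CPM in ONT. COL1A2 made up most of the H1975 sum (8538 Illumina counts over the 3 H1975 libraries and 1 in HCC827), DCN and LUM had 24 counts or fewer in each Illumina and ONT group, and PDGFRB was lower in HCC827 in Illumina (308 and 5 counts) but higher in ONT (194 and 469 counts). The lung epithelial markers NKX2-1, NAPSA, SFTPB and SFTA2 summed to 29.9 to 33.8 CPM in H1975 and 275 to 334 CPM in HCC827. Hematopoietic markers (PTPRC, CD3E, CD79A, CD14 and LYZ) summed to 11.2 to 12.9 and 2.66 to 3.14 CPM, with CD3E at 0 in HCC827, and endothelial markers (PECAM1, CDH5, VWF and KDR) to 7.28 to 8.55 and 2.89 to 3.88 CPM. Of the endothelial markers, PECAM1 and KDR were lower in HCC827 on Illumina and ONT. VWF was higher (log2 fold 1.95 in Illumina and 1.71 in ONT), and CDH5 hardly differed in Illumina (-0.08). The part of these marker differences in the results below was not tested.

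In GENCODE release 44 on GRCh38, CDKN2A lies on the minus strand of chromosome 9 (21967752 to 21995301) and CDKN2B (22002903 to 22009305) on the same strand upstream of it. MTAP (21802636 to 21937651), which encodes the methionine salvage enzyme methylthioadenosine phosphorylase, and CDKN2B-AS1 (21994139 to 22128103), the antisense transcript also called ANRIL, are on the plus strand. CDKN2B lies wholly inside the span of CDKN2B-AS1 but shares no annotated exon base with it, whereas CDKN2A and CDKN2B-AS1 share 593 exon bases on opposite strands, 15.3% of the exon length of CDKN2A. A further lncRNA, ENSG00000264545, is annotated on the plus strand from the start of MTAP to beyond CDKN2B, as the map of gene spans shows. The Illumina kit was directional, but no source used here gives the strand setting of the counting, so counts of these overlapping genes are uncertain.

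**Figure D1:**
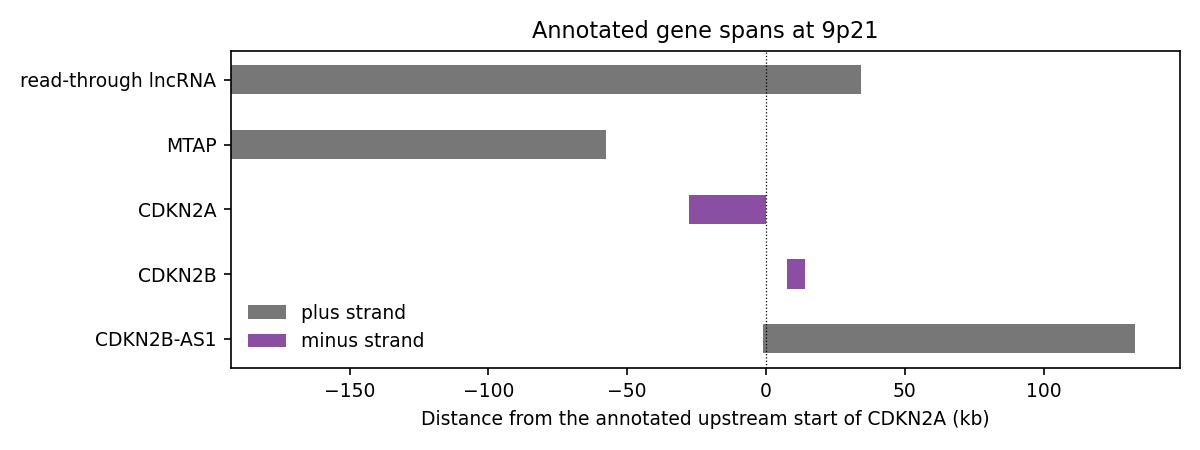
Map of the annotated spans (GENCODE 44) of 4 members and of the lncRNA ENSG00000264545, called the read-through lncRNA, at 9p21. The x axis is the distance in kb from the annotated upstream start of CDKN2A and bars are coloured by strand. The lncRNA runs from -192.7 to 34.3 kb and spans MTAP, CDKN2A and CDKN2B.

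CDKN2A has a pair of start sites in RefSeq (GRCh38.p14), 20467 bases apart. The upstream start gives the ARF transcript and the downstream start the INK4a transcript, and a count per gene does not separate them. The 250 bases before each CDKN2A start, before the MTAP start and before a CDKN1A start are shown because these 3 genes had the largest differences between the lines of the 10. They lie at chr9:21995325-21995574 and chr9:21974858-21975107 (minus strand), chr9:21802386-21802635 (plus strand) and chr6:36678464-36678713 (plus strand). Capitals mark the GC box GGGCGG on either strand, the letters of an SP1 site.
CDKN2A upstream start: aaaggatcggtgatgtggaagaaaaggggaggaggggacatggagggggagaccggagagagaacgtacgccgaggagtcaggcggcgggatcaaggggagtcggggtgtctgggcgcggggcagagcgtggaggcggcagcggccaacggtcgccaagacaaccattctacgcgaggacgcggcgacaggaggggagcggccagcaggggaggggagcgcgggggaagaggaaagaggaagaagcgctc
CDKN2A downstream start: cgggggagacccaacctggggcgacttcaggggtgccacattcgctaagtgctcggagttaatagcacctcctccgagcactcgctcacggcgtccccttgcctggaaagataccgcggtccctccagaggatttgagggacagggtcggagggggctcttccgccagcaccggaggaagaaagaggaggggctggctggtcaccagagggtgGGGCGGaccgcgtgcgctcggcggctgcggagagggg
MTAP: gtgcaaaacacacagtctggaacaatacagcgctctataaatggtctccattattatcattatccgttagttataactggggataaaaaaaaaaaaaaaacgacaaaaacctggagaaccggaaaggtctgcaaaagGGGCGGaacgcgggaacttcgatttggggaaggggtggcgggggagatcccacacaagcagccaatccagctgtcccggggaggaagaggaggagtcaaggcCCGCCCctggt
CDKN1A: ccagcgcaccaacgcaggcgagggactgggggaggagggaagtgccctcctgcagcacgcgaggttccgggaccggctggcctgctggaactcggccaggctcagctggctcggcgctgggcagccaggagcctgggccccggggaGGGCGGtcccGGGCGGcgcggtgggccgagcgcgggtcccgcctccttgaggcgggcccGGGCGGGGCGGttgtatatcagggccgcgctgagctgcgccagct
The upstream CDKN2A window held no GC box and 24 CpG dinucleotides, and the downstream window held 1 GC box and 20 CpG. The MTAP window held 2 GC boxes, 1 CCAAT box, 1 TATA box (TATAAA) and 11 CpG, and the CDKN1A window held 4 GC boxes, some of them overlapping, and 27 CpG. Among all 35116 RefSeq windows of this length, 42.6% held GGGCGG, 32% CCAAT and 10.7% TATAAA on either strand, and the median was 11 CpG. The RefSeq start of CDKN2B-AS1 lay 533 bases from the upstream CDKN2A start. Windows were found for 9 of the 10 genes.

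CDKN2A was the gene of the 10 with the largest difference between the lines and was higher in HCC827. It stood at 20.1, 22.2 and 22.1 CPM in the H1975 Illumina libraries and at 195, 201 and 233 CPM in those of HCC827. The groups did not overlap, and the fold was 9.78 (log2 fold 3.29 ± 0.11 SE, n = 3 libraries per line, adjusted p = 6.31e-12, edgeR). In ONT the H1975 libraries held 28.5, 28.1 and 30.9 CPM and the HCC827 libraries 274, 254 and 336 CPM. The ONT fold was 9.87 (log2 3.30 ± 0.15, adjusted p = 3.71e-08), so both platforms put the lines about as far apart. In bulk RNA, fewer cells that express a gene and less RNA of it per cell cannot be told apart. Under every alternative run, the log2 fold stayed between 2.93 and 3.34 in Illumina and between 2.74 and 3.42 in ONT.

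CDKN2B, the INK4 gene next to CDKN2A, did not share that rise. Its Illumina levels were 35.6, 35.2 and 39.7 CPM in H1975 and 31.8, 22 and 27.9 CPM in HCC827, without overlap, and it fell by 0.41 on the log2 scale (± 0.12, adjusted p = 0.00656). ONT levels were 2.87, 3.03 and 3.37 CPM in H1975 and 3.17, 3.07 and 3.36 CPM in HCC827 and overlapped, with a log2 fold of 0.05 ± 0.15 (adjusted p = 0.787), which turned to -0.51 (adjusted p = 0.019) when libraries were scaled to total counts. Within a library the count ratio of CDKN2A to CDKN2B does not depend on scaling. It was 0.584 ± 0.040 (SD, n = 3) in H1975 and 7.88 ± 1.55 (n = 3) in HCC827 in Illumina, and 9.47 ± 0.42 and 89.8 ± 9.13 in ONT. These ratios did not overlap between the lines on either platform (exact permutation test on log2 ratios, two-sided p = 0.1, the smallest that 3 against 3 libraries allow).

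The other INK4 genes, CDKN2C and CDKN2D, which encode p18 and p19, were the lowest INK4 genes per kilobase of exon in Illumina in both lines. CDKN2C ranged from 5.69 to 7.0 CPM in H1975 and from 5.25 to 7.41 CPM in HCC827 in Illumina, where the groups overlapped (log2 fold 0.02 ± 0.14, adjusted p = 0.921). That sign turned in 6 of the 12 alternatives, and under total counts the fold was -0.34 with an adjusted p of 0.0472. In ONT CDKN2C stood at 2.44, 2.29 and 2.25 CPM in H1975 and at 1.27, 1.69 and 1.58 CPM in HCC827. All 3 HCC827 values were lower, and it fell by 0.62 on the log2 scale (± 0.18, adjusted p = 0.0103), or 1.54-fold. CDKN2D had Illumina levels of 1.91 to 2.53 CPM in H1975 and 1.28 to 1.84 CPM in HCC827, and its log2 fold of -0.43 ± 0.19 missed the threshold (adjusted p = 0.0528). It passed under total counts (-0.78, adjusted p = 0.00264), with a replicate block (-0.50, adjusted p = 0.0375) and without H1975 replicate 2 (-0.56, adjusted p = 0.0273). ONT levels of CDKN2D were 1.51 to 1.76 CPM and 0.96 to 1.34 CPM, with a log2 fold of -0.49 ± 0.19 (adjusted p = 0.044). That call was lost when any 1 library but HCC827 replicate 2 was left out. It was also lost with DESeq2 (adjusted p = 0.0717), with no filter on low counts (adjusted p = 0.0534) and with a replicate block (adjusted p = 0.0706).

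**Figure D2:**
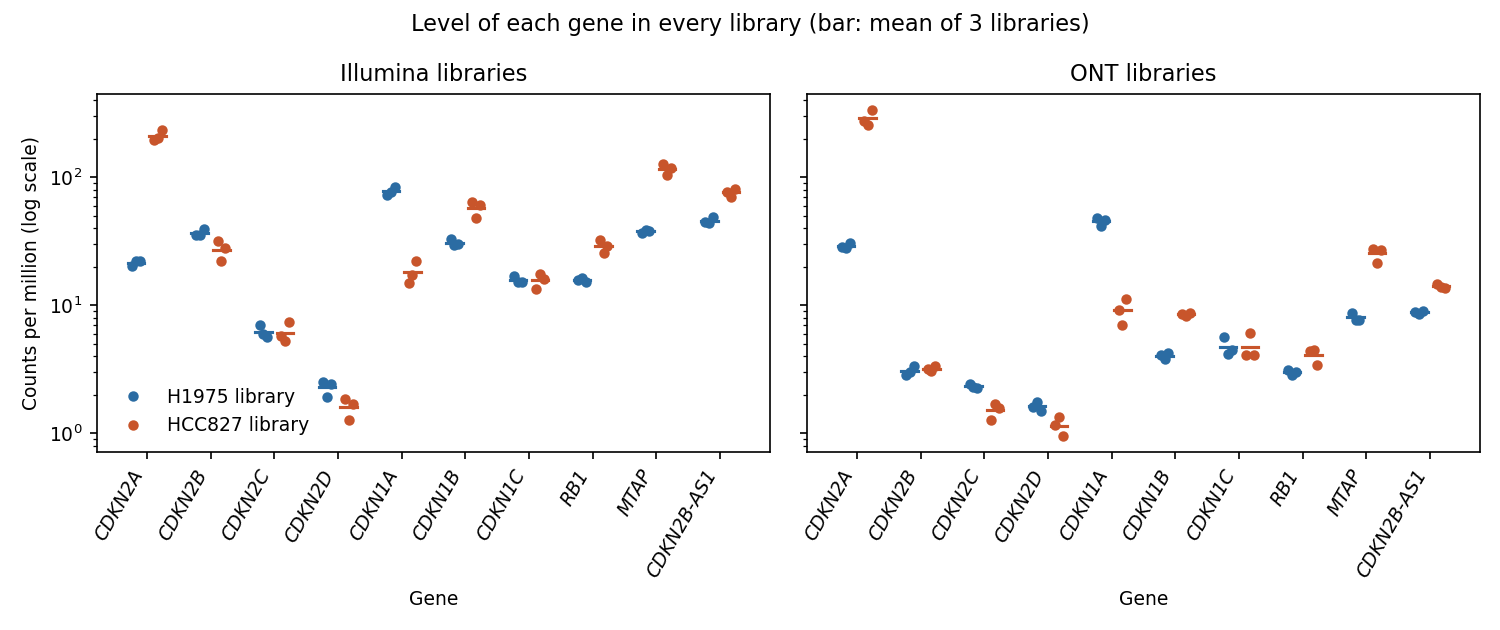
Level of each of the 10 genes in every Illumina and ONT library, in CPM on a log axis, with 1 point per library coloured by cell line and a bar at the mean of 3 libraries. CDKN2A (21.5 and 209.8 CPM on average in Illumina) and CDKN1A (78.1 and 18.1 CPM) show the widest gaps, in opposite directions.

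MTAP was higher in HCC827 on both platforms. Its Illumina levels were 36.7, 39.0 and 37.9 CPM in H1975 and 127, 103 and 117 CPM in HCC827, a fold of 3.06 (log2 1.61 ± 0.10, adjusted p = 3.46e-09). ONT gave 8.76, 7.66 and 7.74 CPM in H1975 and 27.7, 21.5 and 27.2 CPM in HCC827, a fold of 3.16 (log2 1.66 ± 0.15, adjusted p = 5.99e-06). The groups were well apart on both platforms, yet the MTAP difference was smaller than that of CDKN2A. The count ratio of CDKN2A to MTAP was 0.567 ± 0.018 in H1975 and 1.83 ± 0.25 in HCC827 in Illumina (3.64 ± 0.37 and 11.4 ± 1.29 in ONT, n = 3 each, exact permutation p = 0.1, two-sided).

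CDKN2B-AS1, which is known to recruit Polycomb proteins to this locus, was at 44.8, 43.9 and 48.6 CPM in H1975 and at 76.9, 69.8 and 81.5 CPM in HCC827 in Illumina. All HCC827 values were higher, with a log2 fold of 0.74 ± 0.10 (adjusted p = 7.1e-06). In ONT its levels were 8.82, 8.58 and 9.05 CPM in H1975 and 14.6, 13.9 and 13.7 CPM in HCC827, again without overlap. The ONT log2 fold was 0.68 ± 0.13 (adjusted p = 0.00104) and lost its call under total counts, where it was 0.12 (adjusted p = 0.438).

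Counts at 9p21 moved together in ways that bear on these values. CDKN2B counts were 79.3% to 81.6% of the CDKN2B-AS1 counts in the H1975 Illumina libraries and 31.6% to 41.3% in those of HCC827, and in each of the 6 PacBio libraries the 2 genes had the same count. Across the annotation, a gene whose span held an opposite-strand gene had at least that gene's count in all 6 libraries for 99.2% of 3064 such pairs in Illumina, 97.0% of 3584 in ONT and 100% of 63 in PacBio (pairs with at least 60 counts of the inner gene). The counts of MTAP, CDKN2A and CDKN2B summed exactly to those of ENSG00000264545 in all 6 PacBio libraries. Their sum was 98.7% to 99.5% of that lncRNA's count in Illumina and 90.1% to 98.2% in ONT, although it is on the strand opposite to CDKN2A and CDKN2B. In ONT the same-strand pseudogene UBA52P6, inside CDKN2B-AS1, had 43.9% of its count in H1975 and 56.9% in HCC827, more than the 35.0% and 22.6% of CDKN2B. With CDKN2B subtracted, CDKN2B-AS1 kept 384, 401 and 337 Illumina counts in H1975 and 1568, 410 and 1584 in HCC827, the 410 coming from the shallow replicate 2. When the counts of every gene inside a member's span were subtracted, an alternative added after the overlap was seen, the CDKN2B-AS1 log2 fold was 2.51 in Illumina (adjusted p = 6.18e-11) and 0.70 in ONT (adjusted p = 0.00357). CDKN2A lies only partly inside CDKN2B-AS1 and was not subtracted, although they share 593 exon bases. The part of CDKN2A in the remaining CDKN2B-AS1 counts was not tested. MTAP contains the opposite-strand lncRNA ENSG00000265194, with 8.71% and 10.4% of the Illumina MTAP counts in H1975 and HCC827 and 54.4% and 47.5% in ONT. Subtraction of all genes inside MTAP left its log2 fold at 1.59 in Illumina and 1.86 in ONT (adjusted p = 5.94e-06).

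**Figure D3:**
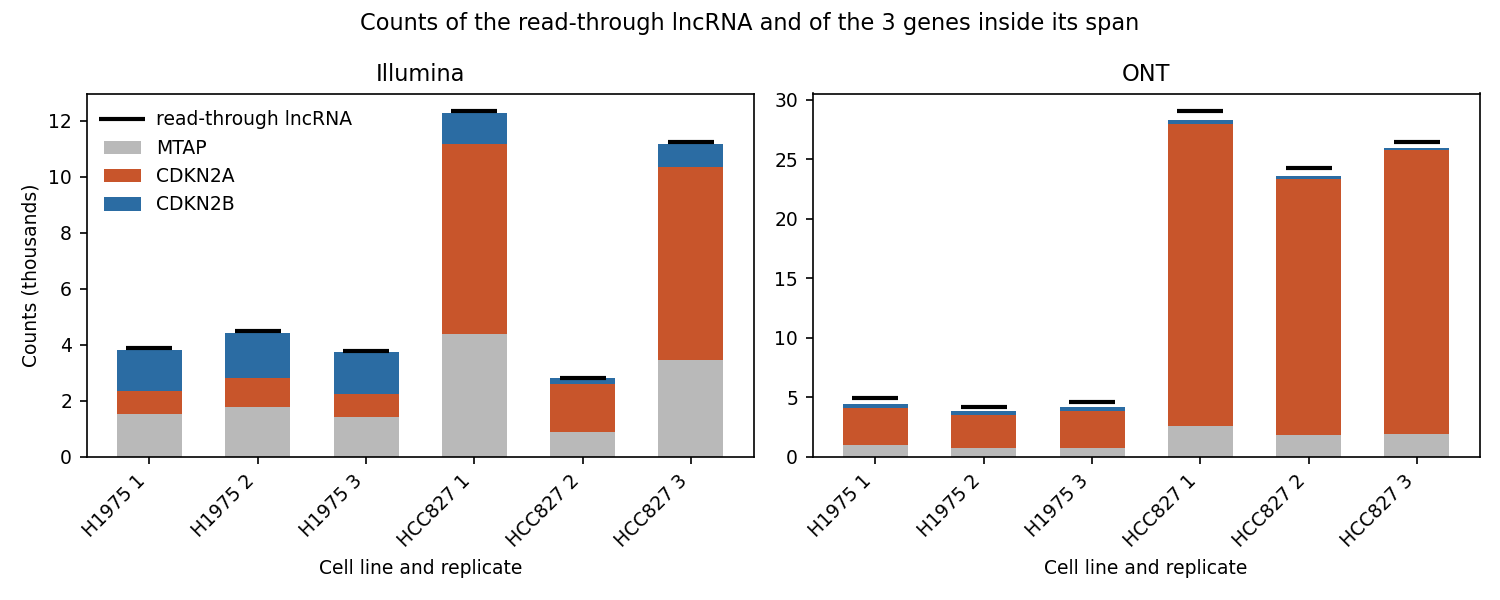
Counts of MTAP, CDKN2A and CDKN2B stacked for each Illumina and ONT library, with a black line at the count of the lncRNA ENSG00000264545 that spans all 3. In Illumina the stack reaches 98.7% to 99.5% of the line, and CDKN2A takes most of the stack in HCC827.

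Of the CIP/KIP inhibitors, CDKN1A, which encodes p21 and is a target of p53, moved against CDKN2A. In Illumina it was at 73.0, 77.0 and 84.4 CPM in H1975 and at 14.9, 17.3 and 22.1 CPM in HCC827. This was a 4.30-fold lower level in HCC827 (log2 fold -2.11 ± 0.13, adjusted p = 4.9e-09). ONT levels were 48.3, 41.7 and 46.2 CPM in H1975 and 9.18, 7.06 and 11.1 CPM in HCC827, 4.98-fold lower (log2 fold -2.32 ± 0.18, adjusted p = 1.75e-06). The groups stood apart on both platforms. The count ratio of CDKN2A to CDKN1A was 0.275 ± 0.013 in H1975 and 11.8 ± 1.30 in HCC827 in Illumina, and 0.645 ± 0.047 and 32.0 ± 3.47 in ONT (n = 3 each, exact permutation p = 0.1, two-sided).

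CDKN1B, which encodes p27, was higher in HCC827. Illumina levels were 32.7, 29.7 and 30.2 CPM in H1975 and 63.7, 47.9 and 61.2 CPM in HCC827 (log2 fold 0.91 ± 0.11, adjusted p = 3.84e-06). In ONT they were 4.06, 3.80 and 4.21 CPM in H1975 and 8.57, 8.25 and 8.74 CPM in HCC827 (log2 fold 1.08 ± 0.14, adjusted p = 6.44e-05). The lines did not overlap on either platform. The Illumina count ratio of CDKN1A to CDKN1B was 2.54 ± 0.28 in H1975 and 0.318 ± 0.074 in HCC827 (ONT 11.3 ± 0.53 and 1.07 ± 0.21, n = 3 each, exact permutation p = 0.1, two-sided). CDKN1C, which encodes p57 and is imprinted, ranged from 15.2 to 17.1 CPM in H1975 and from 13.4 to 17.5 CPM in HCC827 in Illumina. Its log2 folds were -0.04 ± 0.12 (adjusted p = 0.774) in Illumina and -0.0009 ± 0.20 (adjusted p = 0.997) in ONT, where levels were 4.2 to 5.64 and 4.06 to 6.10 CPM, and the groups overlapped on both platforms. Under total counts the Illumina fold of CDKN1C was -0.39 with an adjusted p of 0.00498.

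RB1, the pocket protein that these inhibitors keep active, was higher in HCC827. In Illumina it was at 15.9, 16.5 and 15.1 CPM in H1975 and at 32.4, 25.8 and 29.1 CPM in HCC827, without overlap (log2 fold 0.89 ± 0.10, adjusted p = 2.44e-06). ONT gave 3.14, 2.85 and 3.00 CPM in H1975 and 4.43, 4.52 and 3.44 CPM in HCC827, with a log2 fold of 0.46 ± 0.16 (adjusted p = 0.0287) that turned to -0.08 (adjusted p = 0.718) under total counts. That ONT call was lost without any 1 of the 3 H1975 replicates (adjusted p = 0.0699, 0.109 and 0.0978) or without HCC827 replicate 1 (0.08). The processed pseudogene PCNPP5 lies inside RB1 on the other strand and had 42.9% of the RB1 count in H1975 and 17.9% in HCC827 in Illumina (38.2% and 14.9% in ONT). With the counts of genes inside RB1 subtracted, the log2 fold was 1.65 in Illumina (adjusted p = 1.49e-08) and 1.18 in ONT (adjusted p = 0.000368).

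Of the 10 genes, 7 were called between the lines in Illumina (5 higher and 2 lower in HCC827), where 74.1% of the 25711 genes tested were called. In ONT 8 of 10 were called (5 higher and 3 lower), against 62.7% of 27366 genes. Both shares are near those of all genes, so the count of calls does not set these genes apart. The median log2 fold of the 10 was 0.38 in Illumina and 0.26 in ONT, beside -0.04 and -0.02 over all genes tested. Levels of the lines did not overlap for 8 of 10 genes on each platform, beside 76.9% of all genes in Illumina and 69.1% in ONT. Scaling to total counts in place of the trimmed mean moved the median of all genes to -0.38 in Illumina and -0.57 in ONT, and the folds of the 10 genes moved with it.

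**Figure D4:**
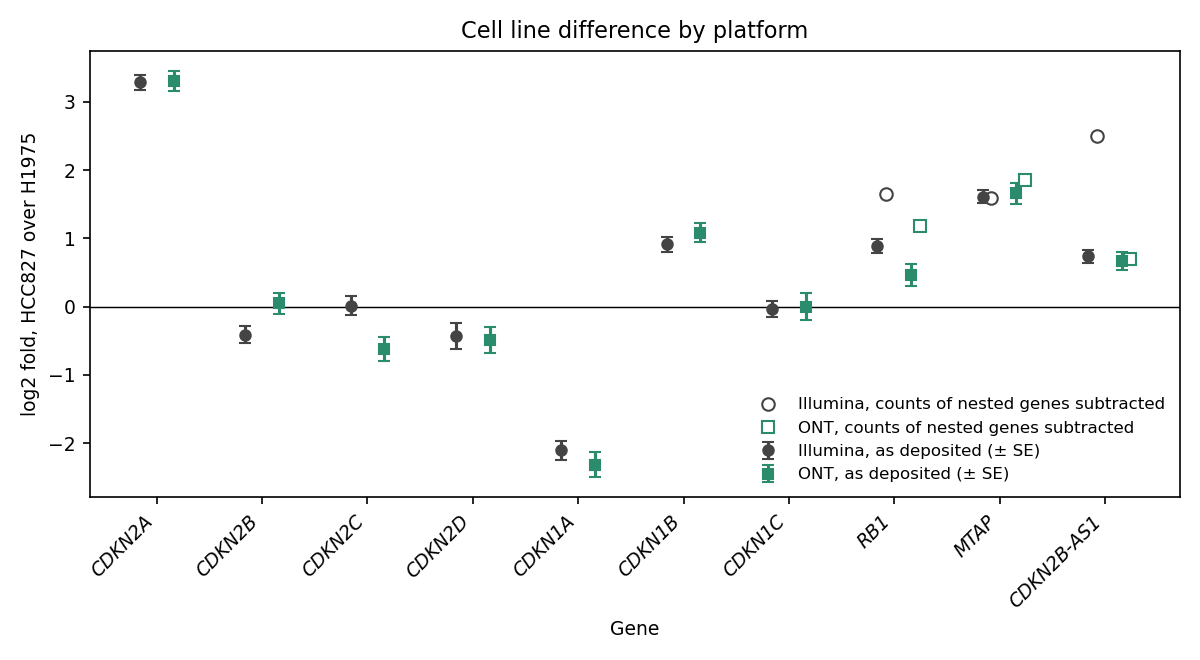
Log2 fold of HCC827 over H1975 for each of the 10 genes (y axis), as filled symbols with ± SE for Illumina and ONT counts as deposited and open symbols after subtraction of the counts of genes nested in a member. CDKN2A lies at 3.29 and 3.30 and CDKN1A at -2.11 and -2.32, and subtraction moves CDKN2B-AS1 to 2.51 in Illumina and RB1 to 1.65 and 1.18. Counts of CDKN2A, which lies only partly inside CDKN2B-AS1, were not subtracted from it.

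Whether a fold differed between ONT and Illumina was tested as an interaction of line and platform. None of the 10 genes was called (edgeR; DESeq2 also called 0), beside 7.16% of 29395 genes (5.03% with a higher and 2.13% with a lower ONT fold), and 1 of the 10, CDKN2B, had an unadjusted p below 0.05. The joint fit of 12 libraries had its own scaling, so its differences need not equal the gaps between the folds fitted per platform. Fitted apart, CDKN2B had log2 folds of 0.05 in ONT and -0.41 in Illumina. The joint fit gave it a difference of 0.63 ± 0.20 (adjusted p = 0.0633), where the median of all genes was 0.11. CDKN2B was called with the RNA sample as a block (0.65, adjusted p = 0.0152) and without HCC827 replicate 1 (0.77, adjusted p = 0.0446). For CDKN2C the difference was -0.47 ± 0.24 (adjusted p = 0.282) and for RB1 -0.26 ± 0.20 (adjusted p = 0.506). After subtraction of nested genes CDKN2B-AS1 alone of the 10 was called, with a difference of -1.64 (adjusted p = 8.98e-06). Over all genes 2102 of 29395 were called in that fit. Counts of CDKN2A, which lies only partly inside CDKN2B-AS1, were not subtracted.

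PacBio counts of these genes were too few for the filter, so 0 of 10 were tested, where 22.9% of the 901 tested genes were called (11.4% higher and 11.4% lower). CDKN2A had 0, 0 and 0 counts in H1975 and 4, 4 and 5 in HCC827. With 3 counts put in for the H1975 group the ratio per total count was 4.71. The 95% interval of the ratio from the counts themselves began at 3.31 and had no upper end. MTAP had 2, 1 and 2 counts in H1975 and 13, 5 and 5 in HCC827, a ratio per total count of 5.00 (95% interval 1.86 to 16.8). The lncRNA ENSG00000265194 inside it had 5 counts where MTAP had 5 in H1975, and 22 where MTAP had 23 in HCC827. CDKN1A had 5, 4 and 5 counts in H1975 and 3, 1 and 0 in HCC827, a ratio of 0.311 (0.0745 to 0.989). These 3 genes thus had deposited counts on the same side as in the deeper platforms, but those of MTAP could not be told apart from those of ENSG00000265194. CDKN2B and CDKN2B-AS1 each had 2, 5 and 2 counts in H1975 and 5, 3 and 1 in HCC827 (ratio 1.09, 0.382 to 3.09). CDKN1B had 1, 1 and 1 against 2, 1 and 2 (ratio 1.81, 0.353 to 11.7) and RB1 0, 1 and 1 against 3, 1 and 0 (ratio 2.2, 0.312 to 24.0), differences that were not detectable at this depth. CDKN2C, CDKN2D and CDKN1C had 0 counts in all 6 libraries. Intervals are exact, cover counting error only and take the 2 close pairs of libraries as separate. With no filter on low counts edgeR called CDKN2A (adjusted p = 0.00144) and MTAP (adjusted p = 0.0131), beside 971 of 14810 genes.

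Per kilobase of exon in Illumina, the level order of the 10 genes differed between the lines. In H1975 CDKN1A led at 26.1 CPM per kb, followed by CDKN2B at 9.20, CDKN1C at 6.38, CDKN2A at 5.52 and CDKN1B at 3.34, all without overlap between neighbours. MTAP (2.61), RB1 (2.46) and CDKN2B-AS1 (2.24) each overlapped the next in that order, the last of them CDKN2C (2.06), and CDKN2D was lowest at 1.52 without overlap. In HCC827 CDKN2A led at 54.0 CPM per kb. The next 6 genes, MTAP (7.96), CDKN2B (6.81), CDKN1C (6.31), CDKN1B (6.22), CDKN1A (6.03) and RB1 (4.52), each overlapped their neighbour, followed by CDKN2B-AS1 (3.73), CDKN2C (2.03) and CDKN2D (1.07). In this Illumina order CDKN1A thus went from the first place in H1975 to the sixth in HCC827, and CDKN2A from the fourth to the first. ONT did not give the same order. There CDKN2A averaged 29.2 CPM in H1975, above CDKN2B at 3.09 CPM, without scaling by length. The per-kilobase levels of MTAP, CDKN2B-AS1 and RB1 were not corrected for genes inside their spans. Exon length was that of all annotated exons of a gene together (9255 bases for CDKN1B, 14527 for MTAP and 20420 for CDKN2B-AS1). The order between genes thus depends on the annotation.

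Along 9p21, 17 neighbours of CDKN2A and CDKN2B were listed, MTAP and CDKN2B-AS1 included. In Illumina 11 were tested, of which 5 were higher in HCC827 and 2 lower, beside 36.1% of all genes higher and 38.0% lower, with a median log2 fold of 0.17. In ONT 10 were tested, with 5 higher and 2 lower (31.1% and 31.6% of all genes) and a median of 0.52. FOCAD, which encodes focadhesin, rose by log2 folds of 2.47 ± 0.10 in Illumina and 2.76 ± 0.21 in ONT (adjusted p = 7.27e-11 and 1.68e-06). MLLT3, a reader of acylated histones in the super elongation complex, rose by 1.42 ± 0.09 and 1.41 ± 0.16. HACD4, a dehydratase of fatty acid elongation, was lower, at -3.90 ± 0.18 and -4.55 ± 0.22 (adjusted p = 1.97e-10 and 5.53e-08). Genes of the region thus lay on both sides of 0. The type I interferon genes IFNA1, IFNA2, IFNB1 and IFNW1 had 0 to 12 counts per group in Illumina and ONT. CDKN2A-DT, a lncRNA annotated next to CDKN2A and named here after its values were seen, had 21 ONT counts in H1975 and 95 in HCC827 (log2 fold 2.50 ± 0.39, adjusted p = 0.000242).

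Among 15 kinases and cyclins that act with CDK4, CDK6 and CDK2, 14 were tested on each platform. In Illumina 3 were higher and 7 lower in HCC827 (median log2 fold -0.31), beside 36.1% of all genes higher and 38.0% lower. In ONT 3 were higher and 6 lower (median -0.12), beside 31.1% and 31.6% of all genes. CDK4, the kinase bound by INK4 proteins, rose by 4.51 ± 0.13 on the log2 scale in Illumina and 4.10 ± 0.21 in ONT (adjusted p = 1.41e-12 and 7.72e-08), although it overlaps TSPAN31. CCNA1, a cyclin best known from the testis, was lower, at log2 folds of -3.62 ± 0.24 and -4.02 ± 0.34. MNAT1, the assembly factor of the CDK-activating kinase, stood at -0.81 ± 0.09 and -0.97 ± 0.13, and a same-strand lncRNA overlaps it.

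Of 17 pocket proteins and E2F and DP factors, all tested, 5 were higher and 5 lower in Illumina (median -0.14), beside 36.1% of all genes higher and 38.0% lower, and 7 higher and 5 lower in ONT (median 0.16), beside 31.1% and 31.6% of all genes. E2F1, an activator released from RB1, rose by 1.08 ± 0.15 in Illumina and 1.59 ± 0.26 in ONT, and E2F4, which works mainly with repressor complexes, by 1.05 ± 0.10 and 0.91 ± 0.17. The atypical repressors E2F7 (-2.73 ± 0.12 and -2.39 ± 0.21) and E2F8 (-0.70 ± 0.13 and -0.84 ± 0.25) were lower. Under total counts the ONT call of E2F4 was lost, and that of E2F8, which overlaps CSRP3-AS1, was lost without H1975 replicate 1 or HCC827 replicate 1. The 25 E2F target genes of DNA replication were split, with 14 higher and 7 lower in Illumina (median 0.34), where 36.1% and 38.0% of all genes were, and 10 higher and 6 lower in ONT (median 0.14), where 31.1% and 31.6% were. The licensing factor CDT1 rose by 3.65 ± 0.16 in Illumina and 1.33 ± 0.32 in ONT, and ORC1, an origin recognition subunit, by 2.63 ± 0.17 and 2.89 ± 0.19. The ONT call of CDT1 was lost under total counts and with no filter on low counts. UHRF1, which guides maintenance DNA methylation, was lower at -1.96 ± 0.11 and -1.58 ± 0.18, and PCNA, the sliding clamp, at -0.59 ± 0.10 and -0.92 ± 0.17.

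The p53 network was listed because CDKN1A is one of its targets. Of 16 other genes 6 were higher and 6 lower in Illumina (median 0.01), beside 36.1% of all genes higher and 38.0% lower, and 6 higher and 4 lower in ONT (median 0.24), beside 31.1% and 31.6% of all genes. BBC3 (1.19 ± 0.15 and 0.97 ± 0.22), which encodes the death factor PUMA, and FDXR (1.12 ± 0.12 and 1.19 ± 0.22), a mitochondrial reductase, were higher in HCC827, both losing the ONT call under total counts. FAS (-1.87 ± 0.13 and -2.22 ± 0.26), a death receptor, and TP53I3 (-1.60 ± 0.10 and -1.51 ± 0.16), an oxidoreductase, were lower with CDKN1A, and both overlap other genes. Of 18 Polycomb proteins, demethylases and ubiquitin ligase subunits that act on the inhibitors, 8 were higher and 6 lower in Illumina (median 0.04) and 4 higher and 4 lower in ONT (median -0.01), against the same shares of all genes (36.1% and 38.0%, 31.1% and 31.6%). DTL, the ligase adaptor for p21 and CDT1, rose by 0.99 ± 0.10 and 1.55 ± 0.11, and the Polycomb reader CBX8 by 0.87 ± 0.12 and 1.34 ± 0.21. DTL overlaps INTS7, and RPL21P28, which lies inside DTL, had 3271 Illumina counts beside 7401 of DTL. These were not subtracted. The cullin CUL1 was lower at -0.96 ± 0.10 and -0.65 ± 0.17, as was BMI1, a Polycomb protein known to repress CDKN2A, at -0.77 ± 0.11 and -0.49 ± 0.19. The ONT call of BMI1 was lost in 5 of the 6 fits that left out 1 library, and BMI1 overlaps COMMD3-BMI1 on the same strand. In PacBio 2 kinases or cyclins, 3 E2F targets and 1 Polycomb or ligase gene passed the filter, of which 1, 1 and 0 were called, all higher.

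**Figure D5:**
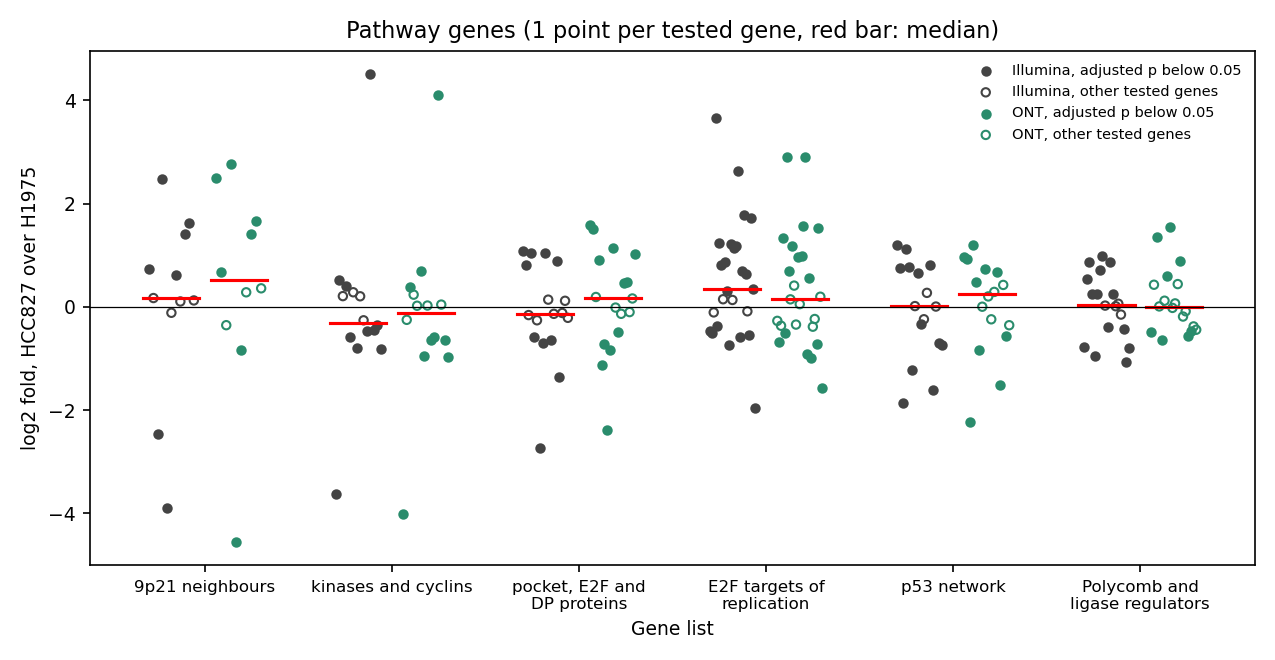
Log2 fold of HCC827 over H1975 (y axis) for every tested gene of 6 lists in Illumina and ONT, 1 point per gene, filled at an adjusted p below 0.05, with a red bar at the median. Each list holds genes on both sides of 0, and medians lie between -0.31 and 0.52.

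By likeness of profile across the 12 Illumina and ONT libraries (root mean square difference in log2 CPM centred per gene and platform, 15044 protein-coding candidates), the genes nearest to CDKN2A were ITGB2 (0.107), TMPRSS13 (0.117) and SMIM22 (0.138). ITGB2 encodes an integrin beta chain best known from leukocytes, and TMPRSS13 a transmembrane serine protease. Nearest to CDKN1A were PLAT (0.115), which encodes tissue plasminogen activator, PIP4P2 (0.136) and LYPD3 (0.139). These values describe how closely the levels followed each other over 2 cell lines.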

How the data were processed

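Whole-number counts per gene, not normalized, were deposited by the authors as 1 table per library. Reads had been aligned to GRCh38 and counted, with minimap2 2.17 and featureCounts among the tools in the submitters' processing notes. No source used here gives the role of each tool by platform, the strand setting or the handling of reads in overlapping genes. Per the labels' protocols, Illumina and ONT libraries came from poly(A) mRNA and PacBio libraries from total RNA. Identifiers without version matched GENCODE 44 for 60357 of the 60617 genes in Illumina tables and for 58207 of the 58676 in long-read tables. Spike-in sequins stayed out of library sizes and tests.

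Lines were compared within each platform on all genes with edgeR 4.0.16 under R 4.3.3 (TMM scaling, filterByExpr with a minimum count of 10, robust quasi-likelihood test, two-sided, Benjamini-Hochberg adjustment over all genes tested). Genes were called at an adjusted p below 0.05. ± after a log2 fold is the standard error. CPM values are counts scaled to the effective library size, except the summed marker levels, which were scaled to total gene counts. The platform difference was an interaction term in a joint fit of the 12 Illumina and ONT libraries. That fit had its own TMM scaling, so its differences need not equal the gaps between the folds fitted per platform. DESeq2 1.42.0 was an alternative. The fits were tested on simulated counts. Promoter sequences are from RefSeq.

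The 10 genes and the gene lists were chosen with earlier results of these data known. All 10 are named. Of each other list, up to 2 genes per direction with the largest Illumina fold among those called the same way on Illumina and ONT are named, and for CDKN2A and CDKN1A the 3 protein-coding genes closest in profile. The series' design says that same-numbered libraries of a line share an RNA sample across platforms. Deviations of same-numbered Illumina and ONT libraries correlated at 0.318, 0.147 and 0.271 in HCC827 and at 0.0898, -0.0225 and 0.0648 in H1975.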

Additional observations from a re-analysis of the deposited data

Results flagged for a closer look

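For 3 genes of the lists the difference between the lines itself differed between ONT and Illumina (edgeR interaction over 12 libraries, 7.16% of 29395 genes called). CDT1, the replication licensing factor, had a smaller log2 fold in ONT than in Illumina, with a difference of -2.1643 ± 0.43 (adjusted p = 0.00653), although it was higher in HCC827 on both platforms. That call was lost without H1975 replicate 2 (difference -1.97, adjusted p = 0.0562). For DTL, an adaptor of the CUL4 ubiquitin ligase that acts on p21, the joint fit put the ONT fold higher by 0.7187 ± 0.14 (adjusted p = 0.00349). Mean levels of DTL were 27.7 CPM in H1975 and 55.3 CPM in HCC827 in Illumina, and 296 and 867 CPM in ONT. DTL overlaps INTS7 and RPL21P28 on the other strand. The part of these genes in the DTL counts was not tested.

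KLHL9, a 9p21 gene that encodes an adaptor of a CUL3 ubiquitin ligase, was named after its values were seen. It was higher in HCC827 in Illumina (15.2 ± 0.27 and 22.7 ± 4.03 CPM, SD, n = 3 libraries per line, log2 fold 0.61 ± 0.12, adjusted p = 0.000306) and lower in ONT (3.71 ± 0.19 and 2.08 ± 0.22 CPM, log2 fold -0.83 ± 0.16, adjusted p = 0.000977). In the joint fit of both platforms the difference was -1.2688 ± 0.20 (adjusted p = 0.000439). That adjusted p lay below the threshold in each alternative run for KLHL9. Under total counts the Illumina call was lost (adjusted p = 0.0902). In PacBio KLHL9 had 4 counts in H1975 and 3 in HCC827.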

How the results depend on the processing

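The signs and calls of CDKN2A, MTAP, CDKN1A and CDKN1B on Illumina and ONT were the same under the 12 alternatives run for each. Of these, the subtraction of nested genes left the counts of CDKN2A as they were, so it could not change its result. The number of the 10 genes called was 7 to 10 in Illumina and 6 to 8 in ONT, and the lowest and highest values without 1 library were 7 and 8 in Illumina and 6 and 8 in ONT. The 10 in Illumina came under total counts, where 19276 of 25711 genes were called. Over all genes, Illumina calls ran from 18015 of 26198 (without H1975 replicate 2) to 20870 of 46239 (no filter). ONT calls ran from 14953 of 28073 (without H1975 replicate 3) to 18734 of 44739 (no filter). In PacBio the number of the 10 genes called was 0, or 2 with no filter on low counts, beside 971 of 14810 genes. For the platform difference it was 0, or 1 with the RNA sample as a replicate block and 1 after subtraction of nested genes, and 0 to 1 without 1 library, the 1 being CDKN2B without HCC827 replicate 1. Over all genes the block called 3109 of 29395, the subtraction 2102 of 29395 and the fit without HCC827 replicate 1 called 1602 of 30212. Genes near 0 changed sign. The Illumina fold of CDKN2C was -0.34 under total counts, -0.0104 with DESeq2, -0.0108 with the replicate block and -0.16 to 0.13 without 1 library. That of CDKN1C was -0.39 under total counts, where it was called, and -0.1042 to 0.0757 without 1 library. In ONT CDKN1C was 0.013 with relative log expression factors and -0.1926 to 0.1301 without 1 library, CDKN2B was -0.51 under total counts and -0.0067 to 0.11 without 1 library, and RB1 was -0.0824 under total counts. The platform difference of CDKN2B-AS1 was -0.0069 with relative log expression factors, -0.0046 with DESeq2 and -1.64 after subtraction of nested genes. Without 1 library it was -0.0093 to 0.1731 for CDKN2B-AS1, -0.1394 to 0.2928 for CDKN2D, -0.1921 to 0.061 for CDKN1A and -0.0195 to 0.3209 for CDKN1C. The cause was not tested.

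Replicate numbers did not pair the lines: deviations of same-numbered libraries of the lines correlated at -0.075, -0.0099 and 0.110 in Illumina, 0.0185, -0.139 and -0.0773 in ONT and -0.536, 0.238 and -0.530 in PacBio. A replicate block called CDKN2D in Illumina (log2 fold -0.50, adjusted p = 0.0375), and CDKN2D and RB1 were not called in ONT (adjusted p = 0.0706 and 0.0619). It changed no other call of the 10 genes between the lines. Over all genes the PacBio calls numbered 206, but 50 with the block, 971 with no filter, 63 with the close pairs summed and 24 to 336 without 1 library. The platform difference called 2105 genes, and 1101 to 2765 without 1 library. Total counts split the calls into 6503 higher and 12773 lower in Illumina and 4333 and 13787 in ONT, against 9293 and 9768 and 8503 and 8660 as reported. PacBio depth limited that platform to counts.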
